A study of Homo sapiens with 10 samples.

Results

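The 9 genes described here serve the presentation of peptides on major histocompatibility complex (MHC) molecules, and were followed across 4 groups of hTERT RPE-1 cells. They were taken by symbol from a table of 40664 gene rows: the class I heavy chains HLA-B, HLA-C, HLA-E and HLA-F, the class I light chain B2M, the peptide transporter subunits TAP1 and TAP2, tapasin (TAPBP), and HLA-DMA, a chain of the class II peptide exchanger HLA-DM. Each symbol had 1 row, and 8 of the 9 genes passed the filter on low counts that left 13990 genes for testing. HLA-F did not pass it.

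Nucleated cells display fragments of their own proteins on class I molecules, which are built from a polymorphic heavy chain and the invariant light chain beta-2-microglobulin. Peptides cut by the proteasome are pumped into the endoplasmic reticulum by the TAP1 and TAP2 heterodimer, and tapasin bridges the transporter to the empty class I molecule while peptides are selected. Class II molecules are loaded in endosomes, where HLA-DM releases a remnant of the invariant chain CD74, and their genes are mainly used by professional antigen presenting cells under control of the transactivator CIITA.

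The libraries came from hTERT RPE-1, a line of human retinal pigment epithelium that telomerase has immortalised. Cells that received siNemp1, a small interfering RNA directed at the nuclear envelope gene NEMP1, gave 3 libraries on a 120 kPa substrate and 2 on a 10 kPa substrate. Control cells, whose own treatment is not described in the labels, gave 3 libraries at 120 kPa and 2 at 10 kPa. The labels name no time after transfection and do not say that replicates were separate cultures, so each p-value reflects library-to-library spread that could be technical.

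Library totals were 17.9 to 23.8 M estimated counts (M for 1000000). NEMP1 itself stood at 7.52, 6.70 and 4.11 CPM (counts per 1000000, TMM-scaled between libraries) in siNemp1 libraries at 120 kPa, against 18.3, 14.05 and 14.1 CPM in controls, and at 8.22 and 7.63 CPM in siNemp1 libraries at 10 kPa, against 14.1 and 17.3 CPM in controls. It was lower in every siNemp1 library than in every control at the same stiffness. Of 11 markers of retinal pigment epithelium, 6 (BEST1, MITF, OTX2, PMEL, TYRP1 and SERPINF1) reached 1 CPM in at least 1 library, the other 5 (RPE65, RLBP1, TYR, LRAT and TTR) stayed under 1 CPM in all 10, and the list summed to 168 to 258 CPM. Of 7 epithelial markers KRT19, EPCAM and CDH1 stayed under 1 CPM, and the list summed to 1498 to 2057 CPM. Replicates spread more widely at 120 kPa than at 10 kPa: the median ratio of the highest to the lowest library of a group was 1.31 (siNemp1) and 1.33 (control) at 120 kPa, against 1.08 and 1.06 at 10 kPa. The ratio is over 3 libraries at 120 kPa and 2 at 10 kPa, and more libraries alone tend to raise it.

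The promoters of 6 of these genes are shown because class I genes and their helpers are known to share sequence elements, while HLA-DMA is a class II pathway gene. Each sequence is the 200 bases before the annotated start site, 5′ to 3′ on the gene's strand, from RefSeq on GRCh38.p14. Capitals mark matches, searched on both strands, to an interferon regulatory factor type of motif (AANNGAAA, called IRF-type here), to a kappaB type of motif, to the CCAAT box, and to TGACG.
HLA-B (chr6:31357180-31357379, minus strand): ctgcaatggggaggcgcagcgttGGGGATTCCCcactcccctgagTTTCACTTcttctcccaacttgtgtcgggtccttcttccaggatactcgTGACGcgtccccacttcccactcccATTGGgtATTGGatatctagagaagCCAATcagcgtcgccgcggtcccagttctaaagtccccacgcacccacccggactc
HLA-C (chr6:31272093-31272292, minus strand): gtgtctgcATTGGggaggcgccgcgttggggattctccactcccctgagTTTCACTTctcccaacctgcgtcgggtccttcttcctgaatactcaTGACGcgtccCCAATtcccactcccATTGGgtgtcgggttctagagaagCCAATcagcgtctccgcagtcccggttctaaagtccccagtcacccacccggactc
B2M (chr15:44711317-44711516, plus strand): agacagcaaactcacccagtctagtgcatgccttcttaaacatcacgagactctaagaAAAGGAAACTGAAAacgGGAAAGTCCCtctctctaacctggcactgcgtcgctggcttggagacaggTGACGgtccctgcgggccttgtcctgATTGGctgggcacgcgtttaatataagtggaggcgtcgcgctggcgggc
TAP1 (chr6:32853705-32853904, minus strand): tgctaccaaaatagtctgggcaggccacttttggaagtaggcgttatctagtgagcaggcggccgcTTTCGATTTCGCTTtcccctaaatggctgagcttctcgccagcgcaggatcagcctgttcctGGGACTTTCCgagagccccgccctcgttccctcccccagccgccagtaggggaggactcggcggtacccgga
TAPBP (chr6:33314079-33314278, minus strand): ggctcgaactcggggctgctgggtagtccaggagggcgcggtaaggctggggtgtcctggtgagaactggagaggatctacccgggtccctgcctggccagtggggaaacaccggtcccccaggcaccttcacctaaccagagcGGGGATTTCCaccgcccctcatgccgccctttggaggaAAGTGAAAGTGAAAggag
HLA-DMA (chr6:32953098-32953297, minus strand): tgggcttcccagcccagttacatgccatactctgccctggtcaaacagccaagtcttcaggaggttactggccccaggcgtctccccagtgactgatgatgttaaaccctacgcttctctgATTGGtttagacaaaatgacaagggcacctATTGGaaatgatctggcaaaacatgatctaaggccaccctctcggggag

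The letters of the 4 motifs were chosen with these promoters in view. A promoter was at hand for 8 of the 9 genes, HLA-E being the exception, and the IRF-type match was found in 7 of the 8, all but HLA-DMA, whereas 16.1% of 35116 promoters of the same length hold it. In B2M, TAP1, TAP2 and TAPBP it occurred as a pair of matches that overlapped each other, and no match overlapped one of another motif. The kappaB-type match was found in HLA-B, B2M, TAP1 and TAPBP (4.28% of all promoters), the CCAAT box in HLA-B, HLA-C, HLA-F, HLA-DMA and B2M (28.03%), and the TGACG match in HLA-B, HLA-C, B2M and TAP2 (18.4%). In HLA-B and HLA-C the IRF-type match began 155 and 151 bases before the start site, the TGACG match 106 and 105 bases, and the nearest CCAAT box 56 bases in both. A match is a description of the letters and was not tested for binding.

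**Figure D1:**
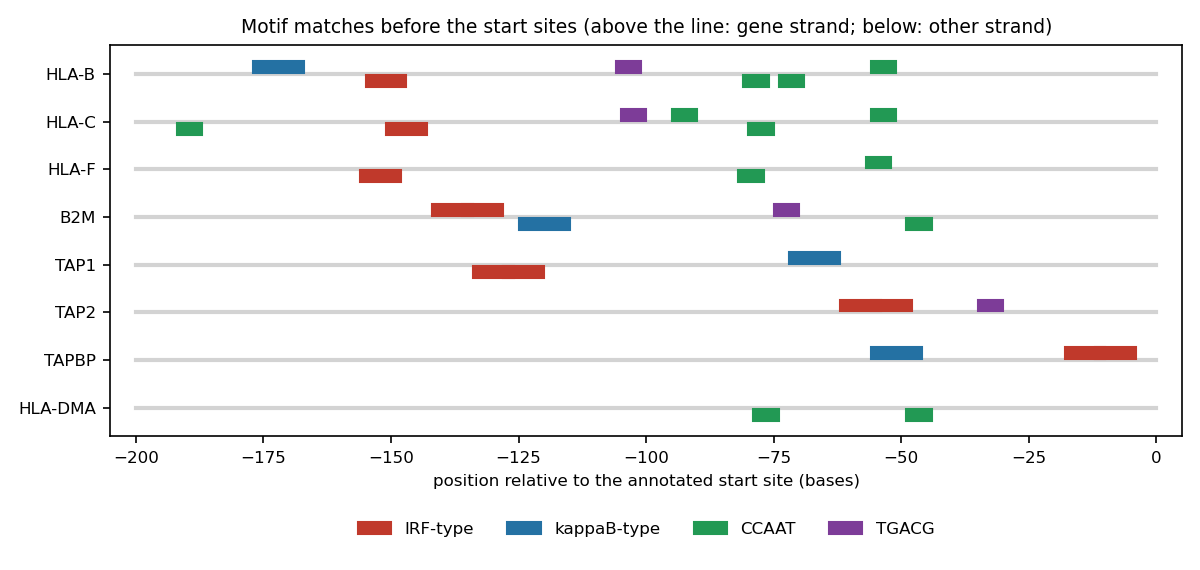
Motif matches in the 200 bases before the annotated start sites of 8 antigen presentation genes (x axis, position in bases relative to the start site; boxes above each line, gene strand; boxes below, other strand). The IRF-type match is present in 7 of the 8 genes, and HLA-DMA holds only the CCAAT box.

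Levels of the genes spanned several orders of magnitude when set per length of the transcript. B2M stood highest, at 1084 ± 200.5 CPM per kb (SD, n = 10 libraries), followed by HLA-C at 119 ± 27.7 and HLA-B at 102 ± 32.6 CPM per kb. TAPBP stood at 69.6 ± 12.6, TAP1 at 12.7 ± 3.43, HLA-DMA at 8.11 ± 2.83 and TAP2 at 1.58 ± 0.490 CPM per kb. The ranges of HLA-C and HLA-B over the libraries overlapped (75.6 to 163 and 67.4 to 170 CPM per kb). Within each library HLA-C lay above HLA-B, except in control library 3 at 120 kPa (163 against 170 CPM per kb). This order was not tested. HLA-E (0.204 ± 0.216) and HLA-F (0.0943 ± 0.0983 CPM per kb) were close to 0.

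The estimates of several of these genes depend on how reads were shared among similar genes. Of the 31-base words in the GENCODE transcript used for each gene, 80.4% of those of TAP2 also occur in another gene, all of them in AL669918.1, and the share was 20.2% for HLA-C, 15.6% for HLA-B, 13.2% for HLA-DMA, 11.5% for HLA-E and 7.85% for HLA-F. It was 1.71% for TAP1 and 0% for B2M and TAPBP. By this measure alone the levels of TAP2, HLA-B, HLA-C, HLA-DMA, HLA-E and HLA-F are less certain than those of B2M, TAP1 and TAPBP. The measure covers 1 transcript per gene, and the annotation behind the counts is not stated. In all 10 libraries the estimates of B2M, TAP1 and TAPBP were not whole numbers either, and the source of this was not tested.

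**Figure D2:**
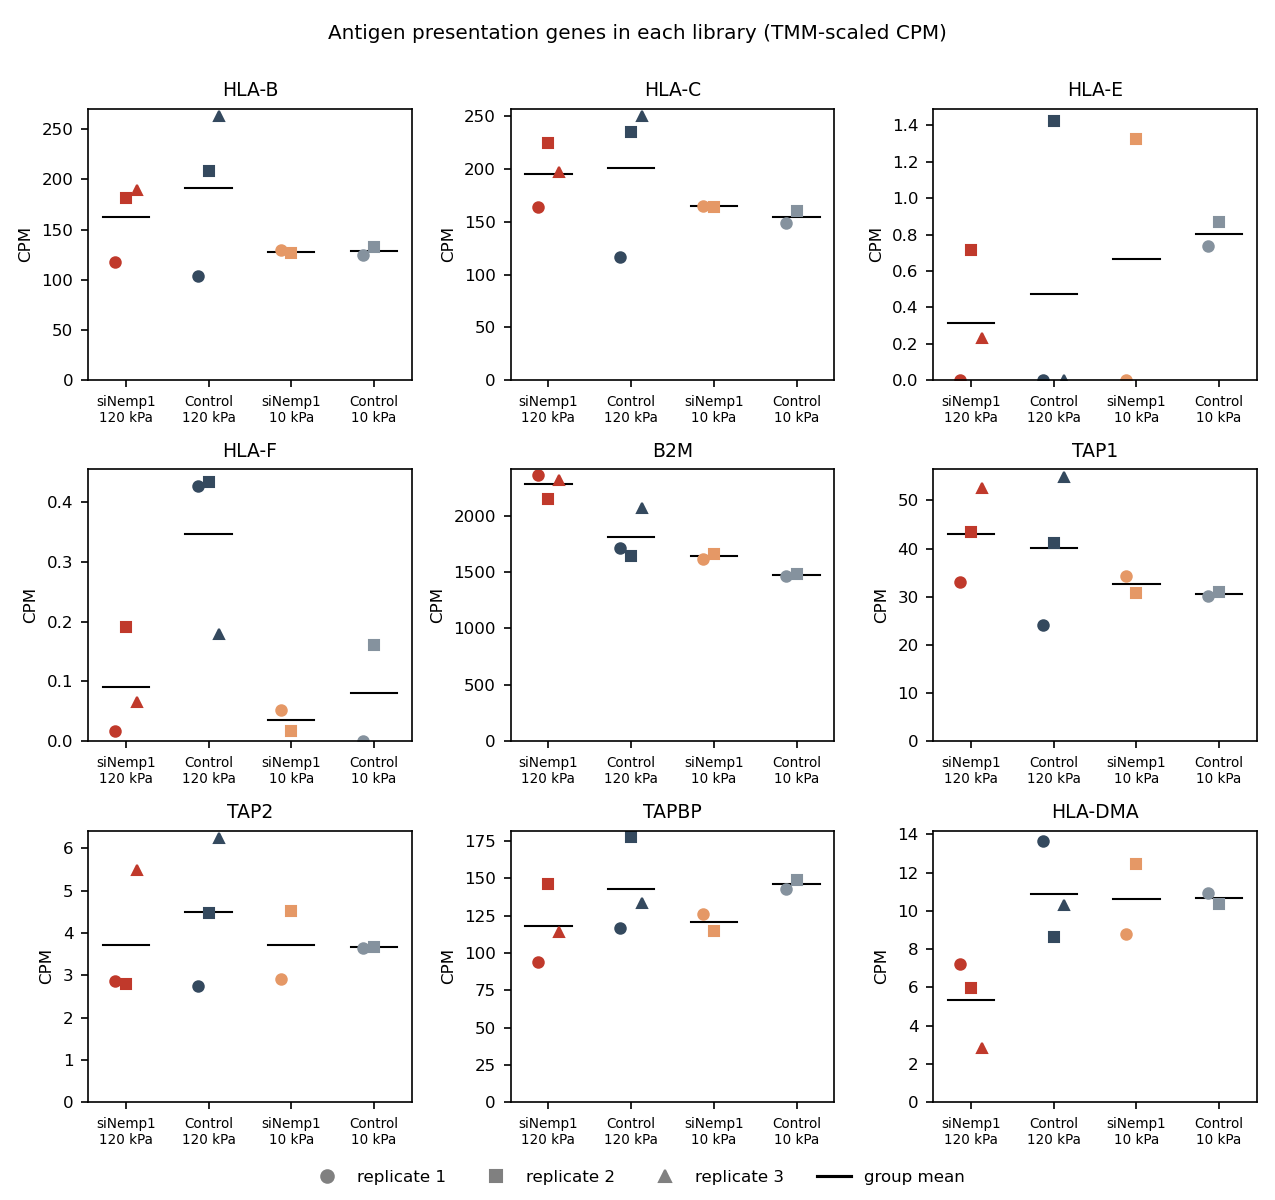
Level of each of the 9 genes in each library (y axis, TMM-scaled CPM, starting at 0; x axis, group; symbols, replicate number; black line, group mean). B2M lay between 2147 and 2364 CPM in siNemp1 libraries at 120 kPa, above every control library there, and HLA-DMA between 2.85 and 7.20 CPM, below every control library there.

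Among the class I heavy chains, neither HLA-B nor HLA-C was called between siNemp1 and control cells at either stiffness, and both spread widely at 120 kPa. HLA-B stood at 118, 181 and 189 CPM in siNemp1 libraries 1, 2 and 3 at 120 kPa, against 104, 208 and 263 CPM in controls 1, 2 and 3, and at 129 and 127 CPM in siNemp1 libraries at 10 kPa, against 125 and 133 CPM in controls. The siNemp1 and control values overlapped at both stiffnesses. The log2 fold change was -0.24 ± 0.28 (SE) at 120 kPa and -0.01 ± 0.35 at 10 kPa (edgeR's quasi-likelihood test, Benjamini-Hochberg adjusted p = 0.72 and 1.00). For every gene this fit shares the spread over all groups, so its SE at 10 kPa also holds the wider spread at 120 kPa. A fit to only the libraries at 10 kPa gave -0.02 ± 0.06 for HLA-B (edgeR adjusted p = 0.87).

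HLA-C behaved alike at 120 kPa. It stood at 164, 224 and 197 CPM in siNemp1 libraries at 120 kPa, against 116, 234 and 250 CPM in controls, and at 165 and 164 CPM in siNemp1 libraries at 10 kPa, against 148 and 160 CPM in controls. The values overlapped at 120 kPa, whereas at 10 kPa both siNemp1 libraries lay above both controls. The log2 fold change was -0.04 ± 0.24 at 120 kPa and 0.09 ± 0.29 at 10 kPa (edgeR's quasi-likelihood test, Benjamini-Hochberg adjusted p = 0.96 and 0.97). The fit to only the libraries at 10 kPa gave 0.08 ± 0.06 for HLA-C (edgeR adjusted p = 0.39).

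HLA-E, the ligand of the inhibitory receptor NKG2A on natural killer cells, was listed at 0 in 4 of the 10 libraries. Its values were 0, 0.713 and 0.235 CPM in siNemp1 libraries at 120 kPa, against 0, 1.42 and 0 CPM in controls, and 0 and 1.33 CPM in siNemp1 libraries at 10 kPa, against 0.736 and 0.869 CPM in controls. HLA-F lay between 0.01745 and 0.191 CPM in siNemp1 libraries at 120 kPa, against 0.179 to 0.432 CPM in controls, and at most at 0.0526 CPM in siNemp1 libraries at 10 kPa, against 0 and 0.160 CPM in controls. In these libraries 3 counts correspond to 0.126 to 0.165 CPM. No fold change is given for HLA-E, which was listed at 0 in libraries of every group but the controls at 10 kPa, or for HLA-F, which did not pass the filter.

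B2M was the gene with the most even separation of the groups. It stood at 2364, 2147 and 2318 CPM in siNemp1 libraries at 120 kPa, against 1716, 1643 and 2072 CPM in controls, and at 1616 and 1660 CPM in siNemp1 libraries at 10 kPa, against 1466 and 1487 CPM in controls. Every siNemp1 library lay above every control at the same stiffness. The log2 fold change of siNemp1 over control was 0.33 ± 0.12 at 120 kPa, 0.15 ± 0.15 at 10 kPa and 0.24 ± 0.10 averaged over both, with adjusted p of 0.19, 0.91 and 0.20 (edgeR's quasi-likelihood test, Benjamini-Hochberg). None passed the threshold of 0.05. From only the libraries at 10 kPa the value was 0.14 ± 0.06 (edgeR adjusted p = 0.092). The blocked fit, in which same-numbered libraries are compared with each other, gave 0.34 ± 0.10 at 120 kPa with an adjusted p of 0.056. B2M was higher in siNemp1 in 3 of 3 such pairs, which follows from the lack of overlap.

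The transporter subunits did not separate siNemp1 from control cells. TAP1 stood at 33.1, 43.5 and 52.6 CPM in siNemp1 libraries at 120 kPa, against 24.1, 41.1 and 54.9 CPM in controls, and at 34.3 and 30.9 CPM in siNemp1 libraries at 10 kPa, against 30.2 and 30.96 CPM in controls. TAP2 stood at 2.86, 2.80 and 5.50 CPM in siNemp1 libraries at 120 kPa, against 2.75, 4.48 and 6.25 CPM in controls, and at 2.91 and 4.52 CPM in siNemp1 libraries at 10 kPa, against 3.65 and 3.68 CPM in controls. Both genes overlapped between treatments at both stiffnesses. At 120 kPa the log2 fold change was 0.11 ± 0.26 for TAP1 and -0.27 ± 0.35 for TAP2 (edgeR's quasi-likelihood test, Benjamini-Hochberg adjusted p = 0.87 and 0.74).

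TAPBP was lower in siNemp1 cells by the same amount at both stiffnesses, without passing the test. It stood at 93.8, 146 and 114 CPM in siNemp1 libraries at 120 kPa, against 116, 178 and 134 CPM in controls, and at 126 and 115 CPM in siNemp1 libraries at 10 kPa, against 143 and 149 CPM in controls. The groups overlapped at 120 kPa but not at 10 kPa, and within same-numbered pairs at 120 kPa siNemp1 was lower in 3 of 3. The share of all genes with such pairs was not counted. The log2 fold change was -0.28 ± 0.18 at 120 kPa and -0.28 ± 0.22 at 10 kPa (edgeR's quasi-likelihood test, Benjamini-Hochberg adjusted p = 0.47 and 0.89). A fit to only the 4 libraries at 10 kPa gave -0.29 ± 0.06 with an adjusted p of 0.0021, on 2 residual degrees of freedom and in a fit that called 17.3% of 13345 genes.

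HLA-DMA showed the largest difference of the 7 genes with a fold change, and it was seen at 120 kPa. It stood at 7.20, 5.97 and 2.85 CPM in siNemp1 libraries at 120 kPa, against 13.7, 8.63 and 10.3 CPM in controls, and at 8.77 and 12.5 CPM in siNemp1 libraries at 10 kPa, against 10.9 and 10.4 CPM in controls. All 3 siNemp1 libraries at 120 kPa lay below all other libraries, whereas the groups overlapped at 10 kPa. The log2 fold change was -1.03 ± 0.31 at 120 kPa (adjusted p = 0.13) and 0.00 at 10 kPa (SE 0.37, adjusted p = 1.00; edgeR's quasi-likelihood test, Benjamini-Hochberg). In the fit that pairs same-numbered libraries it fell by 1.10 on the log2 scale at 120 kPa (SE 0.27, adjusted p = 0.037), and DESeq2 gave -1.06 with an adjusted p of 0.024. The difference between the effects at the 2 stiffnesses was -1.03 ± 0.48 (unadjusted p = 0.055, edgeR adjusted p = 1.00), so an effect limited to 120 kPa was not shown. In bulk RNA, fewer cells that express a gene and less of its RNA per cell cannot be told apart.

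Counted over the 8 tested genes, 0 were called at 120 kPa by edgeR's quasi-likelihood test, as were 0.0% of all 13990 genes, and 2 (B2M and HLA-DMA) had an unadjusted p under 0.05, as had 2413 of all genes. The blocked fit called 1 of 8 (HLA-DMA), against 8.75% of all genes. A blocked fit to only the 120 kPa libraries, a fit with no filter on low counts and DESeq2 also called HLA-DMA alone, against 9.39%, 2.73% and 2.73% of their genes. The shares with no filter and by DESeq2, here and below, are over 23547 and 23537 genes, many with low counts. They are thus not shares of the 13990 genes. DESeq2 gave no adjusted p to some genes, HLA-E and TAP2 among them at 120 kPa. At 10 kPa edgeR called 0 of 8 genes and 0.0% of all genes, 0 of 8 had an unadjusted p under 0.05 (850 of all genes), and DESeq2 called 0, against 0.0722%. Averaged over both stiffnesses edgeR called 0 of 8, against 1.29% of all genes, 1 had an unadjusted p under 0.05 (2763 of all genes), and DESeq2 called 0, against 4.22%. Without both 120 kPa libraries numbered 3, a choice made after the values were seen, the average for B2M was 0.27 (edgeR adjusted p = 0.035), in a fit that called 11.1% of genes. For the difference between the effects at the 2 stiffnesses edgeR called 0 of 8 genes, against 0.00715% of all, and DESeq2 called 0.

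Groups did not overlap at 120 kPa for B2M, which was higher (10.9% of all genes were so), and HLA-DMA, which was lower (6.95%). At 10 kPa HLA-C and B2M were higher without overlap (28.8% of all genes) and TAPBP was lower (28.5%). The median log2 fold change of the 8 genes was -0.25 at 120 kPa (-0.12 with the block) and 0.00 at 10 kPa, beside 0.01 and 0.00 over all tested genes.

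**Figure D3:**
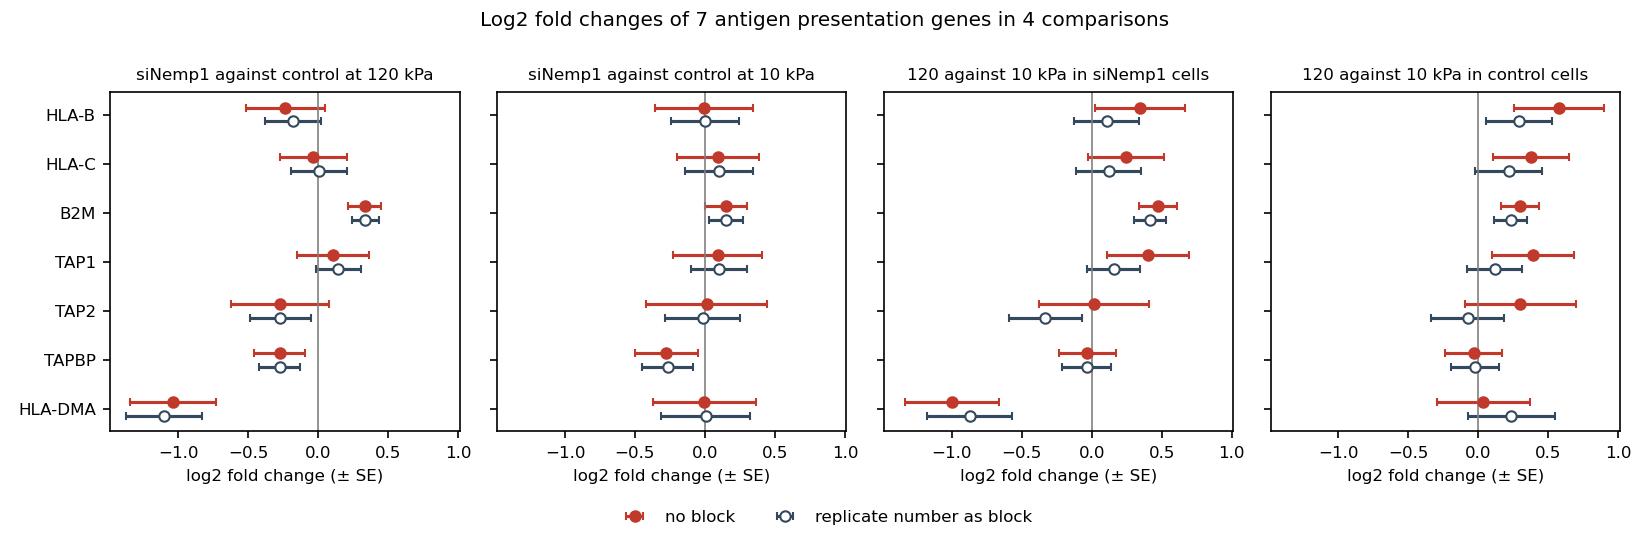
Log2 fold changes (x axis, point ± SE) of the 7 genes with a fold change in 4 comparisons, without a block (filled) and with one for the replicate number (open). HLA-DMA lies at -1.03 for siNemp1 at 120 kPa and at 0.00 at 10 kPa, and B2M is positive in all 4 panels.

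On stiffness, none of the 8 genes was called, and the average differences of B2M, HLA-B, HLA-C and TAP1 were positive, with large spread among the 120 kPa libraries. Averaged over both treatments, the log2 fold change of 120 over 10 kPa was 0.38 ± 0.10 for B2M, 0.46 ± 0.23 for HLA-B, 0.31 ± 0.19 for HLA-C and 0.40 ± 0.21 for TAP1, with adjusted p of 0.17, 0.36, 0.45 and 0.38 (edgeR's quasi-likelihood test, Benjamini-Hochberg). TAP2 was at 0.16 ± 0.28, TAPBP at -0.03 ± 0.14 and HLA-DMA at -0.48 ± 0.24. With the replicate block the average was smaller, at 0.32 ± 0.08 for B2M, 0.20 ± 0.17 for HLA-B, 0.17 ± 0.17 for HLA-C, 0.14 ± 0.14 for TAP1 and -0.32 ± 0.23 for HLA-DMA, and TAP2 changed sign to -0.20 ± 0.19 (edgeR adjusted p = 0.17 for B2M and 0.63 to 0.76 for the others). Number 3 occurs only at 120 kPa, so in the blocked fit the libraries numbered 3 add nothing to this average, which rests on numbers 1 and 2. HLA-E averaged 0.316 CPM in siNemp1 and 0.474 CPM in control libraries at 120 kPa, against 0.663 and 0.802 CPM at 10 kPa. The unblocked and the blocked fit both called 0 of the 8 genes and 0.0% of all genes, and 1 gene (B2M) had an unadjusted p under 0.05 without the block, as had 2200 of all genes, while DESeq2 called B2M (adjusted p = 0.0055), against 2.09% of all genes, and a fit with no filter on low counts called HLA-B (adjusted p = 0.0095), against 3.56%.

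Within siNemp1 cells B2M was 0.47 ± 0.14 higher on the log2 scale at 120 kPa (edgeR adjusted p = 0.32, DESeq2 adjusted p = 0.043, against 0.472% of genes called by DESeq2) and HLA-DMA differed by -0.996 ± 0.34 (edgeR adjusted p = 0.34, and 0.0034 with no filter, which called 2.25% of its genes). Both were without overlap, B2M higher (18.2% of all genes) and HLA-DMA lower (15.5%), and edgeR called 0 of 8 genes, against 0.0% of all. Within control cells B2M differed by 0.29 ± 0.13, HLA-B by 0.57 ± 0.32 and HLA-DMA by 0.035 ± 0.33 (edgeR adjusted p = 0.99, 0.99 and 1.00). B2M was the only one of the 8 without overlap there, as were 10.3% of all genes in that direction (11.9% in the other), and edgeR called 0 of 8, against 0.0143% of all.

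At 120 kPa several of the genes were ordered alike by replicate number in both treatments. In both treatments library 1 was the lowest of its group for HLA-B, HLA-C, TAP1 and TAPBP (4 of 8 genes, against 24.7% of all genes), and library 3 was the highest for HLA-B, TAP1 and TAP2 (3 of 8, against 21.7%). HLA-DMA went the other way, with library 1 the highest in both treatments (24.9% of all genes). B2M was lowest in library 2 in both, and library 1 was not the sole lowest of both groups for HLA-E or TAP2. Among control libraries at 120 kPa the highest HLA-B value was 2.52 times the lowest, above the ratio of 97.01% of 9643 genes of at least 5 CPM, and HLA-C and TAP1 lay above 94.0% and 95.3% of them.

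B2M lay above only 38.5% of genes in that ratio, and its level relative to the heavy chains varied. B2M over the sum of HLA-B and HLA-C was 8.39, 5.30 and 6.001 in siNemp1 libraries at 120 kPa, against 7.78, 3.72 and 4.04 in controls, and 5.49 and 5.71 in siNemp1 libraries at 10 kPa, against 5.37 and 5.07 in controls. The ratio was highest in library 1 of both treatments at 120 kPa, and it was higher in siNemp1 than in the control of the same number in 3 of 3 pairs at 120 kPa. Both siNemp1 libraries at 10 kPa lay above both controls. B2M alone was also higher in siNemp1 in 3 of 3 pairs and in both libraries at 10 kPa. How often ratios of other genes separate in this way was not counted.

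The average stiffness difference moved with the replicate number left out at 120 kPa, a set of alternatives chosen after the values were seen. Without both libraries numbered 1 it was 0.70 ± 0.09 for HLA-B, 0.50 ± 0.08 for HLA-C, 0.61 ± 0.11 for TAP1 and 0.39 ± 0.10 for B2M. Since those libraries were the lowest of their groups for HLA-B, HLA-C and TAP1, leaving them out raises these 3 differences by construction, and no support is taken from the 4 calls of that fit, which called 16.1% of 13860 genes. Without both libraries numbered 3 it was 0.24 ± 0.23 for HLA-B, 0.20 ± 0.21 for HLA-C, 0.15 ± 0.16 for TAP1 and 0.32 ± 0.07 for B2M, with 0 of the 8 genes called, as was 0.0% of all genes. In the blocked fit these libraries add nothing to this difference either, so the 2 fits are not separate checks. Without both numbered 2 it was 0.38 ± 0.27, 0.18 ± 0.21, 0.38 ± 0.25 and 0.43 ± 0.11 for the same genes in that order. Without control library 1 at 120 kPa alone, again the lowest of its group, HLA-B (0.61) and HLA-C (0.45) were called by edgeR, against 2.37% of all genes. The labels do not say what a replicate number marks.

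**Figure D4:**
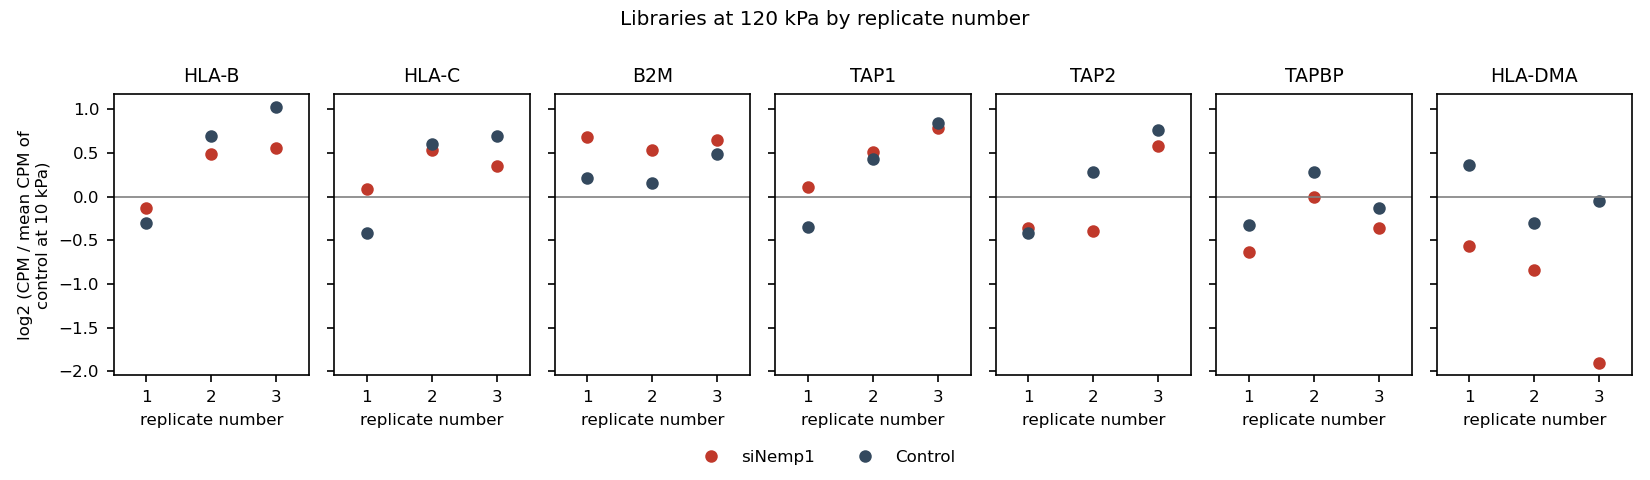
Each library at 120 kPa by replicate number (x axis) for 7 genes, as log2 of its CPM over the mean CPM of control libraries at 10 kPa (y axis). HLA-B, HLA-C, TAP1 and TAPBP are lowest in library 1 of both treatments, whereas HLA-DMA is highest in library 1 and every siNemp1 library of HLA-DMA lies below its control.

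The genes most alike in pattern over the 10 libraries were found by the root mean square (RMS) difference of log2 CPM after centring each gene on its own mean, among 9644 genes of at least 5 CPM. For HLA-DMA they were FAM111B (RMS 0.19), ARHGAP11A (0.23) and CD74 (0.24), beside a median over all genes of 0.65. For HLA-B they were RPS6KB2, ELL and KCTD5 (0.12 to 0.13, median 0.46), with HLA-C at rank 14 and TAP1 at rank 19. For B2M they were MRPL18, RPL30 and HPRT1 (each 0.04, median 0.33), with HLA-C at rank 4378, and for TAP1 they were UBE2M, PHGDH and MRPL28 (0.05 to 0.08, median 0.41). The RMS between HLA-B and HLA-C was 0.15, against 0.39 between HLA-B and B2M and 0.86 between HLA-B and HLA-DMA. These are descriptions over libraries that share a replicate number or a group, with no test.

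The wider pathway was followed with 7 lists of 88 symbols, of which 85 were in the table and 70 were tested. At 120 kPa edgeR called 0 of these 70, 10 of which had an unadjusted p under 0.05, and the blocked fit called 1 higher (6.24% of all genes) and 3 lower (2.51%). At 10 kPa edgeR called 0, with 1 at an unadjusted p under 0.05. The fit to only the 4 libraries at 10 kPa, which called 17.3% of all genes, called 9 of the 70 higher (8.1% of all genes) and 3 lower (9.19%), the 3 being UGGT1, JAK1 and TYK2. Averaged over both stiffnesses edgeR called 1 higher (0.858% of all genes) and 0 lower (0.429%), and the blocked fit called 3 higher (6.58%) and 2 lower (4.17%). In the stiffness average edgeR called 0 of the 70, with 8 at an unadjusted p under 0.05. The median log2 fold change of the 70 genes at 120 kPa was -0.07, beside 0.01 over all tested genes.

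Of the class II pathway list (16 genes, 8 tested) the blocked fit called CD74, the invariant chain that occupies the class II groove until HLA-DM acts. The fit to only the 10 kPa libraries called CTSL, a lysosomal protease, higher by 0.24 on the log2 scale (SE 0.05, edgeR adjusted p = 0.0035). CD74 stood at 6.44, 6.01 and 3.16 CPM in siNemp1 libraries at 120 kPa, against 10.9, 10.1 and 8.003 CPM in controls, and at 9.90 and 8.58 CPM in siNemp1 libraries at 10 kPa, against 9.48 and 10.1 CPM in controls. As with HLA-DMA, all 3 siNemp1 libraries at 120 kPa lay below all other libraries. Of all genes, 6.95% lay below the controls at 120 kPa without overlap, and 15.5% below the siNemp1 libraries at 10 kPa. The share below all other libraries at once was not counted. It fell by 0.94 on the log2 scale at 120 kPa in the blocked fit (SE 0.17, edgeR adjusted p = 0.011) and was at -0.90 ± 0.25 without the block (adjusted p = 0.11), and at 10 kPa it was at -0.08 ± 0.30. HLA-DRA and HLA-DPA1, class II chains themselves, were listed at 0 in all 10 libraries, and HLA-DMB, the partner chain of HLA-DMA, stayed under 1 CPM.

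CIITA, the class II transactivator, was at 2.29, 2.56 and 3.19 CPM in siNemp1 libraries at 120 kPa, against 4.01, 3.22 and 5.23 CPM in controls, and at 4.56 and 4.84 CPM in siNemp1 libraries at 10 kPa, against 7.06 and 4.48 CPM in controls. At 120 kPa every siNemp1 library lay below every control for CIITA (6.95% of all genes were so), so it was also lower in 3 of 3 pairs. Its log2 fold change there was -0.63 ± 0.26 (edgeR adjusted p = 0.24, blocked 0.11). Of the 19 regulators of MHC transcription tested, 0 were called at 120 kPa by edgeR with or without the block. IRF1, which carries the interferon signal to class I promoters, was at 0.04 ± 0.13 there, and NLRC5, the class I transactivator, at -0.34 ± 0.15 (edgeR adjusted p = 0.27).

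**Figure D5:**
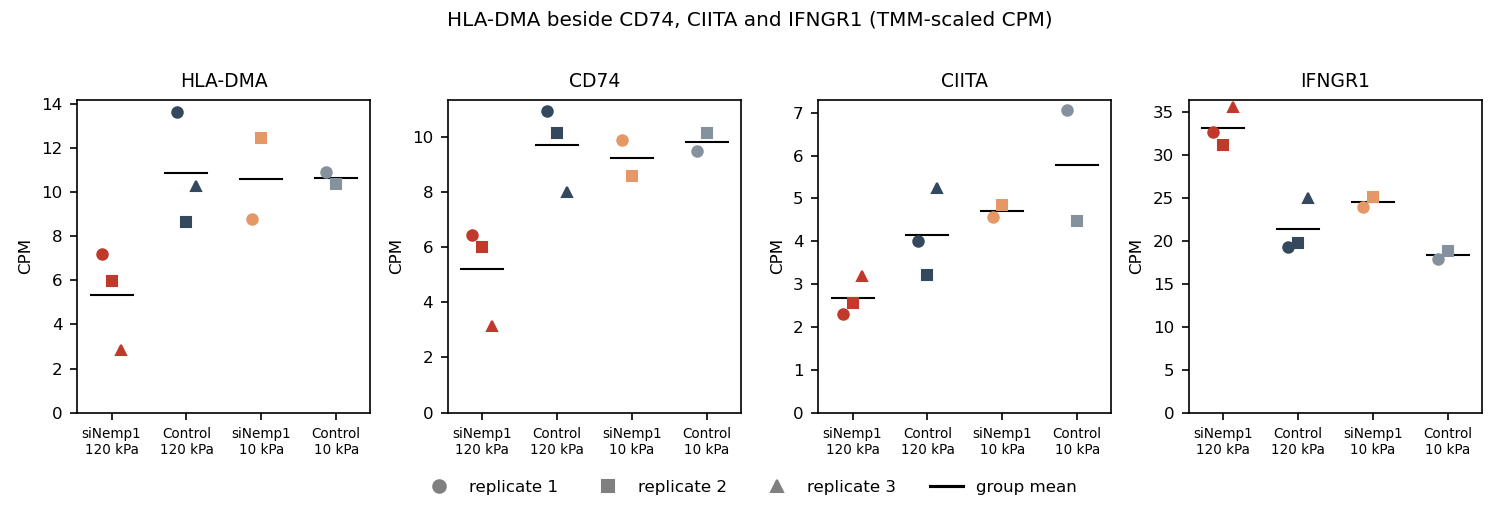
Level of HLA-DMA, CD74, CIITA and IFNGR1 in each library (y axis, TMM-scaled CPM, starting at 0; x axis, group; symbols, replicate number; black line, group mean). HLA-DMA and CD74 are lowest in the 3 siNemp1 libraries at 120 kPa (CD74 3.16 to 6.44 CPM), and IFNGR1 is highest there (31.1 to 35.6 CPM).

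IFNGR1, the ligand-binding chain of the interferon gamma receptor, rose in siNemp1 cells averaged over both stiffnesses and was the 1 gene of the 70 that edgeR called there in the unblocked fit to all 10 libraries. It stood at 32.7, 31.1 and 35.6 CPM in siNemp1 libraries at 120 kPa, against 19.2, 19.8 and 24.98 CPM in controls, and at 23.99 and 25.1 CPM in siNemp1 libraries at 10 kPa, against 17.9 and 18.9 CPM in controls. The groups did not overlap at either stiffness, as was so in that direction for 10.9% of all genes at 120 kPa and 28.8% at 10 kPa. The average log2 fold change was 0.53 ± 0.10 (edgeR adjusted p = 0.048, blocked 0.0086). The call held without control library 1 or 3 or siNemp1 library 3 at 120 kPa and was lost without any of the other 7 libraries, where the adjusted p was at most 0.33. It was also lost with DESeq2 size factors, upper-quartile scaling or rows of a symbol summed (adjusted p = 0.053, 0.053 and 0.055).

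In the blocked fit at 120 kPa ULBP3, a stress-induced ligand of the NKG2D receptor, fell by 0.40 on the log2 scale (SE 0.10, edgeR adjusted p = 0.029), and UGGT1, the glycoprotein folding sensor of the endoplasmic reticulum, fell by 0.39 (SE 0.10, adjusted p = 0.042). Averaged over both stiffnesses with the block, ULBP2, another NKG2D ligand, rose by 0.45 (SE 0.11, edgeR adjusted p = 0.031), PSMA3, a subunit of the proteasome core, rose by 0.33 (SE 0.09, adjusted p = 0.041), UGGT1 fell by 0.31 (adjusted p = 0.039) and CD74 fell by 0.52 (adjusted p = 0.034). Without the block their adjusted p at the same comparisons lay between 0.093 and 0.31.

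Markers of professional antigen presenting cells and other leukocytes were checked because HLA-DMA, CD74 and CIITA are typical of those cells. Of 14 markers, MS4A1, AIF1 and CD80 were at 0 in all 10 libraries and 7, these 3 among them, were under 1 CPM in all. The other 7 (PTPRC, CD14, CD68, ITGAX, CD79A, CIITA and CD74) reached 1 CPM in at least 1 library. The summed level of the list without CD68, a lysosomal gene of many cell types, was 10.1 to 13.6 CPM in siNemp1 libraries at 120 kPa, against 16.8 to 19.0 CPM in controls, and 16.4 to 18.6 CPM in siNemp1 libraries at 10 kPa, against 19.6 to 21.4 CPM in controls. That sum holds CD74 and CIITA themselves, and its part in the HLA-DMA result was not tested. CD68 was at 854, 711 and 492 CPM in siNemp1 libraries at 120 kPa, against 1166, 939 and 711 CPM in controls. In the blocked fit CD68 fell by 0.46 on the log2 scale at 120 kPa (edgeR adjusted p = 0.025) and CD14, at 0.587 to 2.64 CPM in all libraries, fell by 1.03 averaged over both stiffnesses (adjusted p = 0.041). Without the block their adjusted p was 0.31 and 0.10. Of 7 fibroblast markers COL1A2 and LUM were under 1 CPM in all libraries, and the summed level was 314 to 736 CPM in siNemp1 libraries at 120 kPa, against 690 to 908 CPM in controls, and 765 to 766 CPM in siNemp1 libraries at 10 kPa, against 948 to 950 CPM in controls. Among them THY1 was at 628, 496 and 255 CPM in siNemp1 libraries at 120 kPa, against 807, 759 and 605 CPM in controls. At 10 kPa it was at 638 and 655 CPM in siNemp1 libraries, against 832 and 832 CPM in controls. THY1 thus made up most of the fibroblast sum, which says little about the other fibroblast markers. Of the 5 fibroblast markers tested, 0 had a positive log2 fold change at 120 kPa and 3 at 10 kPa in the unblocked fit. In the blocked fit, which called HLA-DMA and CD74, THY1 also fell at 120 kPa, by 0.73 on the log2 scale (SE 0.15, edgeR adjusted p = 0.0196, and 0.23 without the block). The part of these markers in the HLA-DMA and CD74 results was not tested either.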

How the data were processed

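Titles placed the 10 sequenced RNA libraries in 4 groups: siNemp1 at 120 kPa (n = 3), control at 120 kPa (n = 3), siNemp1 at 10 kPa (n = 2) and control at 10 kPa (n = 2). Per the labels, RNase H served to deplete ribosomal transcripts from total RNA and random hexamers primed the cDNA; the strand setting is unknown. Tools listed in the submitters' processing notes are Salmon 1.80 (as written there), Trimmomatic 0.33, FastQC 0.11.9 and edgeR, with GRCh38 as build, without the annotation or the step from transcripts to genes. The deposited table holds estimated counts per gene that the authors did not scale between libraries (46.1% of values above 0 are not whole), rounded here to whole numbers.

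Genes were filtered with filterByExpr and scaled with TMM in edgeR 4.0.16 (R 4.3.3), and all 10 libraries entered a single quasi-likelihood model with a mean for each group (13990 genes, 6 residual degrees of freedom), with two-sided tests and Benjamini-Hochberg adjustment over all genes tested. Genes were called at an adjusted p under 0.05. Alternatives were the replicate number as a block, only the groups compared, other scalings and filters, DESeq2 1.42.0 and each library left out. Same-numbered siNemp1 and control libraries at 120 kPa deviated together from their group means (r = 0.426, 0.157 and 0.359 over 13990 genes, all above 0.1), whereas r was 0.0171 at 10 kPa. The numbers were therefore taken to pair libraries at 120 kPa, from the data and the titles alone. The blocked fit to all 10 libraries also paired those at 10 kPa and tied equal numbers across stiffnesses, for which these values give no ground. Only the blocked fit to the 120 kPa libraries used the pairs at 120 kPa alone. The fits were tested on simulated data.

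The genes, lists and rule for named genes (the 9 genes, NEMP1, genes of the pathway lists called without or with the block, and the most alike genes) were chosen with earlier results of these data known. CIITA, NLRC5, IRF1, HLA-DMB, HLA-DRA, HLA-DPA1, CTSL, JAK1, TYK2 and the marker genes fall outside that rule and were named after their values were seen. Some other genes of the lists are not reported here. Coordinates and promoters are RefSeq GRCh38.p14. Transcripts for lengths and shared words are from GENCODE.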

Additional observations from a re-analysis of the deposited data

How the results depend on the processing

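Over 59 log2 fold changes and the alternatives run, 1235 values were recomputed: 1096 kept their direction and side of the threshold, 59 newly passed it, 21 no longer passed it and 59 changed sign. The cause of the sign changes was not tested. At 120 kPa 1 of the 8 tested genes (HLA-DMA) was called with the replicate number as a block, with that block on the 120 kPa libraries alone, with no filter on low counts and by DESeq2, against 0 otherwise; the 120 kPa pairs behind the block rest on the data. At 10 kPa 1 gene (TAPBP) was called from only the groups compared, and averaged over stiffnesses 1 gene (B2M) without both 120 kPa libraries numbered 3. Between stiffnesses 1 gene was called in siNemp1 cells with no filter and 1 by DESeq2, and in the average 1 with no filter, 1 by DESeq2 and 4 without both 120 kPa libraries numbered 1. Leaving out 1 library gave 0 to 2 calls in that average and 0 in the other comparisons.

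With the replicate block, log2 fold changes that changed sign were HLA-C 0.0072 at 120 kPa (0.00094 on those libraries alone), HLA-B 0.0018, HLA-DMA 0.0043 and TAP2 -0.017 at 10 kPa, and TAP2 -0.33 and -0.077 between stiffnesses in siNemp1 and control cells (-0.204 in the average of both). DESeq2 size factors gave HLA-B 0.0095 and HLA-DMA 0.0136 at 10 kPa and TAP2 -0.0077 between stiffnesses in siNemp1 cells, and DESeq2 gave 0.0107, 0.0156 and -0.0122. For that TAP2 value upper-quartile scaling gave -0.032 (and IRF1 -0.0105 at 120 kPa) and no filter -0.00059, and for TAP2 at 10 kPa only the groups compared gave -0.0060. Without both libraries numbered 1, TAP1 was -0.0104 at 120 kPa, and between stiffnesses TAPBP was 0.105 in siNemp1 and 0.0965 in control cells (0.101 in the average) and HLA-DMA -0.158 in control cells. Without both numbered 3, HLA-C was 0.119 and IRF1 -0.109 at 120 kPa, HLA-B 0.0036 and HLA-DMA 0.0062 at 10 kPa, and between stiffnesses TAP2 -0.418 in siNemp1 and -0.0100 in control cells (-0.214 in the average) and TAPBP 0.0231 in control cells.

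With 1 library left out, siNemp1 against control at 120 kPa ranged over -0.538 to 0.0484 for HLA-B, -0.317 to 0.144 for HLA-C, -0.163 to 0.391 for TAP1, -0.700 to 0.0356 for TAP2 and -0.153 to 0.142 for IRF1. At 10 kPa it ranged over -0.0505 to 0.0342 for HLA-B, -0.293 to 0.241 for HLA-DMA and -0.349 to 0.310 for TAP2. Between stiffnesses it ranged over -0.419 to 0.371 for TAP2 and -0.216 to 0.101 for TAPBP in siNemp1 cells, and over -0.160 to 0.172 for HLA-DMA, -0.0264 to 0.557 for TAP2 and -0.227 to 0.0949 for TAPBP in control cells, and in the average over -0.0570 to 0.337 for TAP2 and -0.133 to 0.0361 for TAPBP. HLA-F, at most at 0.432 CPM where 3 counts are 0.126 to 0.165 CPM, did not pass the filter, and what set the zeros of HLA-E was not tested.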
